A study of Mus musculus with 5 samples.

Results

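The 9 genes described here write, copy, remove or shield DNA methylation in the mouse: Dnmt3a, Dnmt3b and Dnmt3l, Dnmt1 and Uhrf1, Tet1 and Tet2, and Trim28 and Zfp57. They were chosen by symbol, as every probe that the platform annotation names with one of them, out of 16032 genes with a named probe. All 9 had 1 probe each. Those of Tet1 and Tet2 stand on the array under the older names Cxxc6 and E130014J05Rik and were matched through the RefSeq synonyms. In GRCm38.p6 the de novo genes lie at chr12:3801559-3914443 (Dnmt3a), chr2:153649411-153687730 (Dnmt3b) and chr10:78042287-78063622 (Dnmt3l), and those of maintenance at chr9:20907206-20959888 (Dnmt1) and chr17:56303337-56323486 (Uhrf1). Tet1 lies at chr10:62804570-62887469, Tet2 at chr3:133463677-133545136, Trim28 at chr7:13024152-13031032 and Zfp57 at chr17:37001163-37010729. Where on its transcript a probe lies is not known, so isoforms of a gene cannot be told apart. The study measured total RNA on 5 one-colour arrays and asked how active Akt kinase bears on the passage of mouse embryonic stem (ES) cells into spheres with germ cell traits, and whether such spheres can return.

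All 5 samples are male cells of strain 129, derived from ES lines that carry a myristoylated Akt fused to a modified estrogen receptor (Akt-Mer), which 4-hydroxytamoxifen (4OHT) activates. All of them, the starting ES cells included, carry this transgene. Of the Akt-spheres, line 21 and line 42 gave 1 array each. They were grown on OP9 stroma in 1 µM 4OHT, begun 3 days before induction. OP9 cells were removed by letting them attach to a dish for 30 minutes, and no sort for a marker is described. ES-like reverted cells (1 array) were derived on mitomycin-treated embryonic fibroblasts from spheres of line 21, with transient 4OHT. Line 21 ES cells in feeder-free ES culture were measured with 1 µM 4OHT (1 array) and without it (1 array). These last 3 arrays are called ES-type below. Line 42 ES cells were not analysed here, so for line 42 spheres the difference between lines and that between spheres and ES cells are mixed. Nothing says whether the 2 sphere arrays are more than 1 culture of each line. No condition has a second array of the same line, so p-values here rest on array-to-array spread alone, some of which may be technical. Where spheres are set against all ES-type arrays, that spread holds the differences among the 3 ES-type conditions and between the 2 sphere lines.

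As background, DNA methylation in mammals sits mainly on the cytosine of CpG pairs. Dnmt3a and Dnmt3b place it on unmethylated DNA, and Dnmt3l, which has no catalytic activity, binds and stimulates them. Dnmt1 copies the marks to the new strand after replication, guided by Uhrf1, which reads half-methylated sites. The Tet enzymes oxidise methylated cytosine as a step toward its removal. The zinc-finger protein Zfp57 binds the methylated copy of imprinted control regions and recruits Trim28 (KAP1), a scaffold for silencing complexes, so that imprints outlast the genome-wide loss of methylation in the early embryo. Primordial germ cells are known for low levels of Dnmt3a, Dnmt3b and Uhrf1 and for the erasure of imprints. The arrays measured RNA, not methylation.

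The promoters of 4 genes are shown because the largest differences between spheres and ES-type cells, described below, were those of Dnmt3l, Dnmt3a and Dnmt3b among the genes read on all arrays, and Zfp57 had no value on either sphere array. Each is the sequence of the plus strand before an annotated transcription start, from RefSeq with build GRCm38.p6, in lower case with every CpG in capitals. For Dnmt3a the first start in the promoter table and an internal start are given, since the internal one yields the shorter isoform known from mouse ES cells. The Dnmt3b sequence ends before the first annotated base of the gene.
Dnmt3a, first start, chr12:3806730-3806979: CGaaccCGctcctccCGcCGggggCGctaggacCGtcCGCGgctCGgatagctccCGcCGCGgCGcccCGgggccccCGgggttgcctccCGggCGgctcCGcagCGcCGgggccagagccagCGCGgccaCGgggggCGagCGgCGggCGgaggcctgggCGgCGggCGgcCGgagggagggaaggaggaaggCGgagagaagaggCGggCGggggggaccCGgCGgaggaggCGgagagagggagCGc
Dnmt3a, internal start, chr12:3891494-3891743: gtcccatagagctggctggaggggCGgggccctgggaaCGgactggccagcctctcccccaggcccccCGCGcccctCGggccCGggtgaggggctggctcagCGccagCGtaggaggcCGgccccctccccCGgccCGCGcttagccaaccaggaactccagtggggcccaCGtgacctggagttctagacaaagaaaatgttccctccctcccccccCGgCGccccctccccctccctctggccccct
Dnmt3b, chr2:153649199-153649410: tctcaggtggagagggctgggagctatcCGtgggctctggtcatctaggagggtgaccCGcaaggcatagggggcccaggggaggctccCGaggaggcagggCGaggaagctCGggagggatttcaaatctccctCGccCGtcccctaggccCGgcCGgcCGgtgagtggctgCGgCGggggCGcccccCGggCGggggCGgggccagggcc
Dnmt3l, first start, chr10:78042037-78042286: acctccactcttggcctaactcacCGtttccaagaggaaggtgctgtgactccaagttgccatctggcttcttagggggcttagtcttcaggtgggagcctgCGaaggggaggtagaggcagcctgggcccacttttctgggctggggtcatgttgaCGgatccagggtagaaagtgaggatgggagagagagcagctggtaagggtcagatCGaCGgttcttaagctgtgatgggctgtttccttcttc
Zfp57, first start, chr17:37000913-37001162: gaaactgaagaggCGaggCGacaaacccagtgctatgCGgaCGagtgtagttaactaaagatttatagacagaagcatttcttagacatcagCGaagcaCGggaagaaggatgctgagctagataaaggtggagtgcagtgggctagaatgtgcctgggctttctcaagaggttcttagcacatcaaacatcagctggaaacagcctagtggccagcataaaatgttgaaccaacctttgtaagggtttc

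The 250 bases before a start held 38 CpGs at the first Dnmt3a start, 15 at the internal one and 21 at Dnmt3b, where the 212 bases printed hold 16 of them. They held 5 CpGs at the first Dnmt3l start and 6 at the first Zfp57 start, against a median of 6 and quartiles of 2 and 16 over all 32851 windows of the table. The sequences thus range from CpG-dense at Dnmt3a to near the median of all promoters at Dnmt3l and Zfp57. The other starts of Dnmt3l held 4 and 3 CpGs, and those of Zfp57 7 and 3. The GC box GGGCGG was searched on both strands of the full 250 bases. It occurred 5 times at the first Dnmt3a start, once at the internal one and 3 times at Dnmt3b, and not at the first start of Dnmt3l or Zfp57. Not all of those at Dnmt3b lie in the 212 bases printed. It was present in 11 of the 18 windows of the 9 genes and in 32.7% of all windows. The forkhead motif GTAAACA, bound by FoxO factors that Akt holds out of the nucleus, was in 0 of the 18 windows and in 3.17% of all windows on either strand. A match or its absence describes these letters only.

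Values are the authors' deposited intensities, linear, with a median of 50 on each array. Differences are on log2(intensity + 1) after centring each array on its median, and so understate the change of dim probes. A probe was tested if every array compared listed it and at least 1 had it at or above its 40th percentile (intensity 28.6 to 29.3). Of the 9 genes, 7 reached it on all 5 arrays. Tet2 reached it only in reverted cells, so its entry into a test already leans on the group where it is high, and Zfp57 was not listed in spheres and could not be tested there. A cell without a value was read as under the floor, which was set at 15.1 and 14.4 for the line 21 and line 42 sphere arrays from the values that probes empty there had elsewhere. In bulk RNA, fewer cells of a type and less RNA per cell cannot be told apart.

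**Figure D1:**
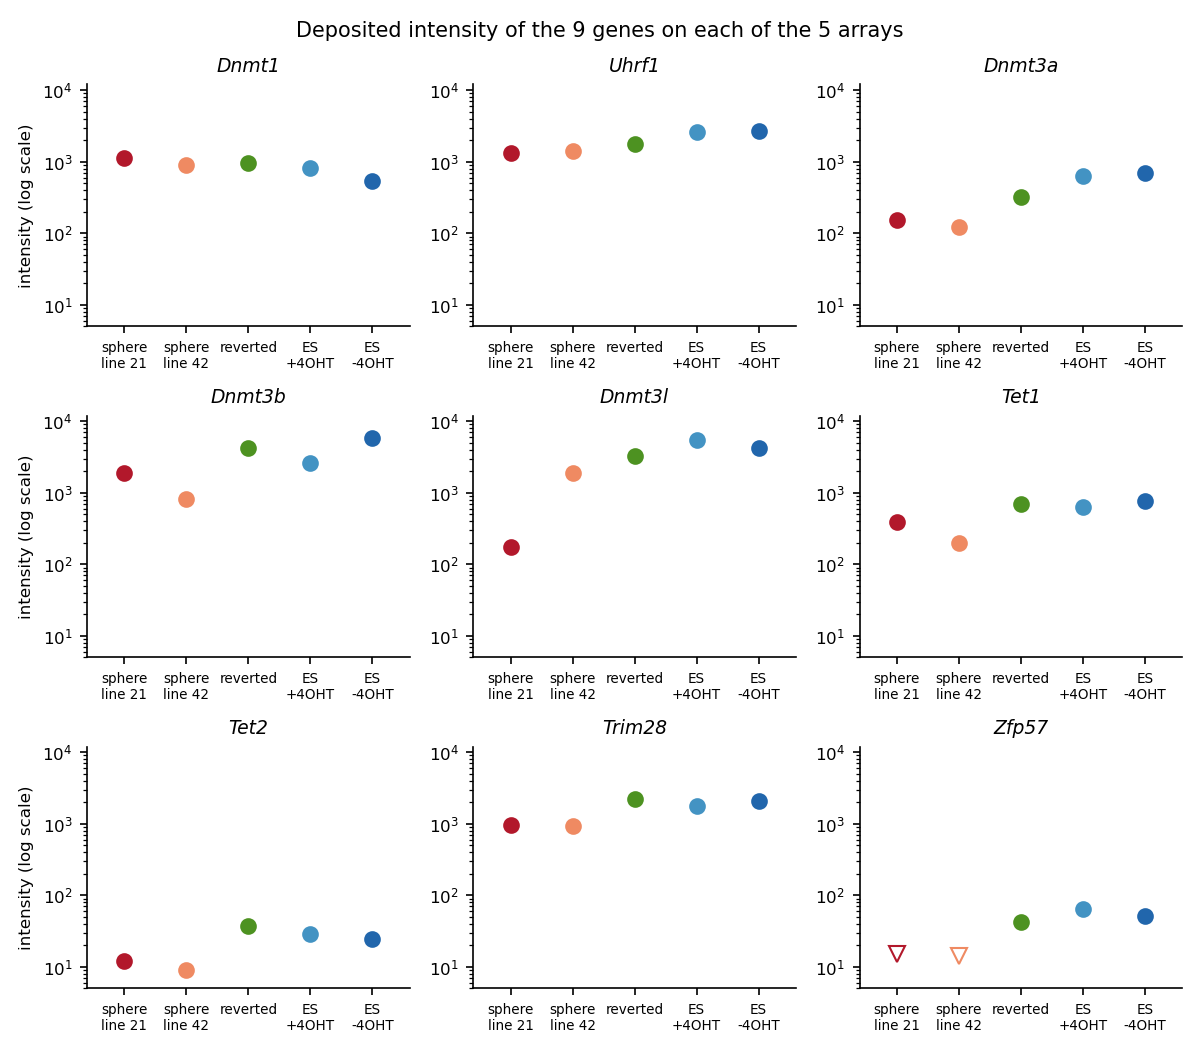
Deposited intensity (log axis) of each of the 9 genes on the 5 arrays, 1 point per array. Open triangles mark the floor of 15.1 and 14.4 for Zfp57, which had no value in spheres. Of the 8 genes with a value on all arrays, 7 (all but Dnmt1) have both sphere points below their 3 ES-type points, as did 18.5% of all genes tested. Tet2 is among the 7, but its sphere values are under the floor and it was tested only through reverted cells.

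The first comparison set the 2 sphere arrays against all 3 ES-type arrays. In 7 of the 8 genes tested, both sphere arrays lay below all 3 ES-type arrays, and Dnmt1 was the exception. Over all 10589 genes tested, 18.5% had both sphere arrays below. The median log2 difference was -1.36 over the 8 genes and 0.00 over all genes. None of the 8 passed limma at an adjusted p of 0.05 (0 called, 7 at an unadjusted p under 0.05), while over all genes limma called 1.47% lower and 0.963% higher and 18.9% were at an unadjusted p under 0.05. Because Tet2 entered the test only through reverted cells, its share in these counts is no support for them. Without Tet2 the median over 7 genes was -1.32.

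**Figure D2:**
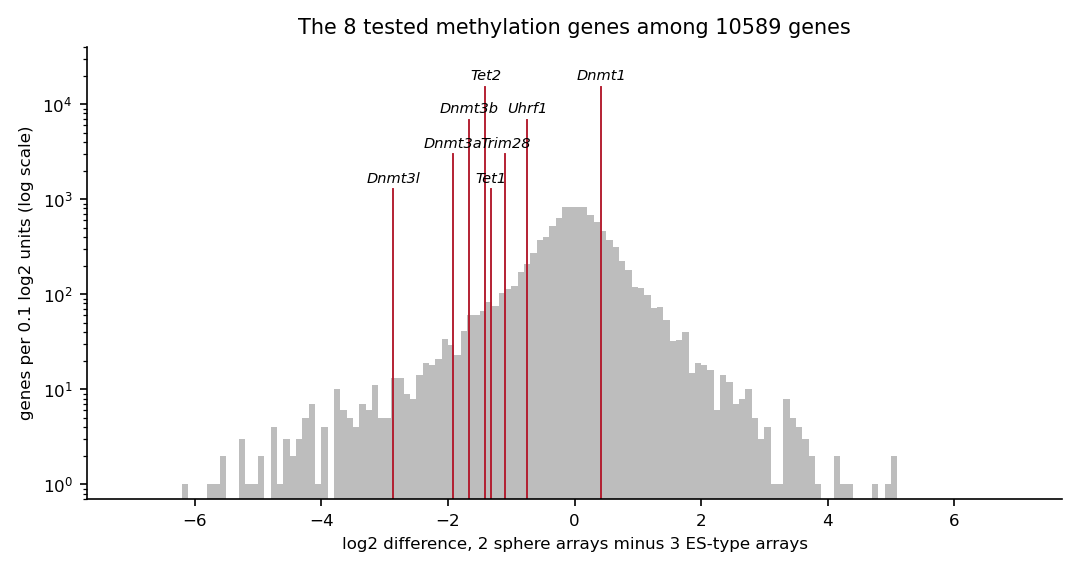
Number of genes (log axis) by log2 difference between the 2 sphere arrays and the 3 ES-type arrays, for the 10589 genes tested. Red lines mark the 8 tested methylation genes, which run from -2.87 for Dnmt3l to 0.43 for Dnmt1.

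Among the genes read on all arrays and above the floor in spheres, the de novo group had the widest gaps. Dnmt3a, the methyltransferase that acts broadly on unmethylated CpGs, read 154 and 122 in line 21 and line 42 spheres, against 324 in reverted cells and 638 and 686 in ES cells with and without 4OHT. Both sphere lines were low and close to each other, and reverted cells lay between them and the ES cells. Spheres were 3.77-fold lower than the ES-type arrays (log2 -1.92, SE 0.40, 95% interval -2.90 to -0.93, limma adjusted p = 0.0727), a gap larger than that of 96% of genes. Without the reverted array the difference was -2.27 and passed (limma adjusted p = 0.0328, with 0.0328 to 0.233 over all alternatives).

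Dnmt3b, its partner enzyme and the form that marks the epiblast, read 1890.3 and 829 in line 21 and line 42 spheres, against 4198 in reverted cells and 2621 and 5767 in ES cells with and without 4OHT. The groups did not overlap, and the narrowest gap was that of line 21 spheres to ES cells given 4OHT. The difference was 3.18-fold (log2 -1.67, SE 0.51, 95% interval -2.93 to -0.41, limma adjusted p = 0.163). Leaving out line 21 spheres gave -2.29, and leaving out line 42 spheres gave -1.05.

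Dnmt3l, the cofactor without catalytic activity, read 176 and 1909 in line 21 and line 42 spheres, against 3289 in reverted cells and 5529.8 and 4218 in ES cells with and without 4OHT. Here the 2 sphere lines were far apart, with line 21 far below the ES-type arrays and line 42 nearer to them. The mean difference was 7.29-fold with a wide error (log2 -2.87, SE 0.94, 95% interval -5.16 to -0.57, limma adjusted p = 0.179). One sphere array moved it widely, to -1.18 without line 21 (limma adjusted p = 0.218) and to -4.55 without line 42 (limma adjusted p = 0.0209, with 0.0209 to 0.411 over all alternatives). In both of these the spheres are 1 array and the spread comes from the 3 ES-type arrays alone, so the second value restates the low level of line 21.

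Among the maintenance genes, Uhrf1 and Dnmt1 went different ways. Uhrf1 read 1334 and 1398 in line 21 and line 42 spheres, against 1785 in reverted cells and 2584 and 2667 in ES cells with and without 4OHT. The sphere lines were nearly equal and lay below all ES-type arrays, with reverted cells the nearest (log2 -0.75, SE 0.28, 95% interval -1.44 to -0.07, limma adjusted p = 0.226). Dnmt1 read 1137 and 893 in line 21 and line 42 spheres, against 963 in reverted cells and 828 and 533 in ES cells with and without 4OHT. Its groups overlapped, since reverted cells stood between the sphere lines (log2 0.43, SE 0.31, 95% interval -0.33 to 1.18, limma adjusted p = 0.525).

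Both Tet genes read lower in spheres. Tet1, the main Tet enzyme of ES cells, read 384 and 198 in line 21 and line 42 spheres, against 687 in reverted cells and 628 and 765 in ES cells with and without 4OHT. The 3 ES-type values lay within a narrow band and both sphere values below it (2.49-fold, log2 -1.32, SE 0.36, 95% interval -2.19 to -0.45, limma adjusted p = 0.128). Tet2 was dim everywhere, at 11.9 and 9.09 in line 21 and line 42 spheres, against 36.6 in reverted cells and 28.3 and 24.2 in ES cells with and without 4OHT. Both sphere values were under the floor of their arrays, and the difference of -1.41 (SE 0.27, limma adjusted p = 0.0602) is therefore no measure of its size.

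Of the genes of imprint protection, Trim28 was low in spheres of both lines and Zfp57 was not listed there. Trim28 read 948 and 932 in line 21 and line 42 spheres, against 2204 in reverted cells and 1786 and 2063 in ES cells with and without 4OHT. The 2 sphere values nearly coincided and the ES-type values lay well above them (2.13-fold, log2 -1.09, SE 0.23, 95% interval -1.66 to -0.52, limma adjusted p = 0.0762). Zfp57 had no value in either sphere line, against 42.0 in reverted cells and 65.2 and 50.5 in ES cells with and without 4OHT. It was thus listed on all ES-type arrays at modest intensity. If its empty cells stand for levels under the sphere floor, which is assumed here, it was at least 3.35-fold lower in spheres, with no test.

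Each ES-type array was then used alone as the comparison for the spheres, with limma's spread taken from the 2 sphere arrays. The 3 comparisons share the sphere arrays, and over all genes limma called 0 in each. At an unadjusted p under 0.05 stood 9.37% of genes against ES cells without 4OHT, 11.6% against those with 4OHT and 8.91% against reverted cells. Counts of genes at least 2-fold lower in both lines are therefore given. Against ES cells without 4OHT, 6 of the 7 genes tested passed this 2-fold mark in each line (Uhrf1, Dnmt3a, Dnmt3b, Dnmt3l, Tet1 and Trim28), where 6.01% of all genes did. The count was 4 without centring or with quantile normalization. Against reverted cells it was 3 of 7 (Dnmt3a, Dnmt3b and Trim28) beside Tet2, which entered only through reverted cells, with 5.81% of all genes, and against ES cells with 4OHT it was 2 of 7 (Dnmt3a and Dnmt3l), with 6.86%. None of the genes tested was at least 2-fold higher in both lines in these 3 comparisons, where 4.51%, 5.98% and 4.21% of all genes were against ES cells without 4OHT, with 4OHT and reverted cells.

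The size of the gap depended on which ES culture stood on the other side. Within line 21, spheres against ES cells with 4OHT is the comparison in which line and 4OHT dose are shared. The cultures still differ, OP9 stroma against feeder-free, and the arrays did not measure kinase activity. In this comparison Dnmt3l was 29.4-fold lower in spheres and Dnmt3a 3.88-fold lower, while Dnmt3b was only 1.30-fold lower. Uhrf1 was 1.82-fold, Trim28 1.77-fold and Tet1 1.54-fold lower, and Dnmt1 was 1.46-fold higher. These are differences between single arrays, with no replicate check.

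**Figure D3:**
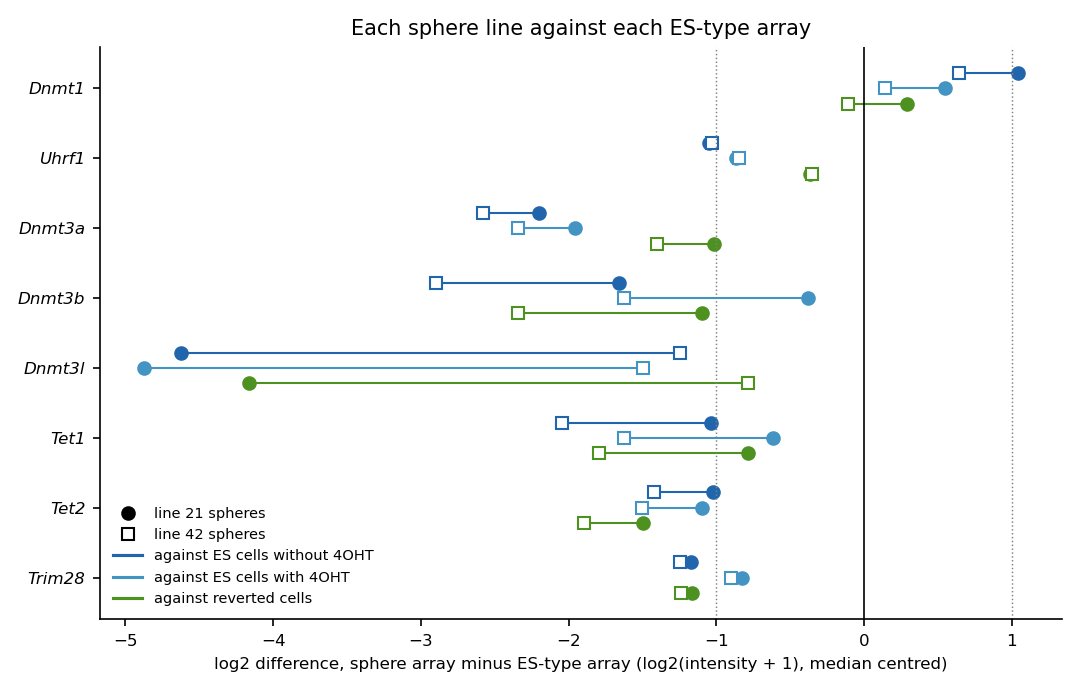
Log2 difference of each sphere array from each ES-type array for the 8 genes listed on all arrays (filled circles, line 21 spheres; open squares, line 42 spheres; colours, the ES-type array). Dotted lines mark 2-fold, and the long bars of Dnmt3l, Dnmt3b and Tet1 show where the sphere lines part.

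The effect of 4OHT alone was read from ES cells of line 21 with and without it, 1 array each. Of the 8 genes compared, only Dnmt3b was at least 2-fold lower with 4OHT (2.42-fold, log2 -1.27), a change larger than that of 97.4% of genes. Of all 9852 genes 2.4% were at least 2-fold lower and 2.56% higher. Using the sphere arrays' spread, the Dnmt3b difference did not pass (SE 0.75, limma adjusted p = 1.00). Dnmt1 was higher by 0.50 and Dnmt3l by 0.25 on the log2 scale, Zfp57 was higher by 0.23, and Tet1 (-0.42), Trim28 (-0.34), Dnmt3a (-0.24) and Uhrf1 (-0.18) were slightly lower. For Dnmt3b, ES cells with 4OHT thus stood at 45.4% of the intensity without it, and line 21 spheres at 32.8%.

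Reverted cells were set against the spheres they came from and against the ES cells from which the line started, within line 21 and with 1 array each. Against line 21 spheres, 4 of the 7 genes other than Tet2 were at least 2-fold higher in reverted cells and none was lower, where 9.41% of all genes were higher and 7.58% lower. Dnmt3l was 17.9-fold higher (log2 4.16), beyond 99.5% of genes. Trim28 was 2.24-fold, Dnmt3b 2.14-fold and Dnmt3a 2.02-fold higher. Tet2 read 36.6 in reverted cells, against a value under the floor in line 21 spheres, and gets no fold. Against starting ES cells without 4OHT, Trim28 differed by 1.00-fold, among the smallest gaps of all genes, and Tet1 by 1.19-fold.

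Return was not equal across the group. Dnmt3a was the only one of the 9 at least 2-fold lower in reverted cells than in starting ES cells (2.27-fold, log2 -1.18), where 6.34% of all genes were lower and 5.18% higher. As a share of the intensity in ES cells without 4OHT, Dnmt3a stood at 22.4% in line 21 spheres and 47.2% in reverted cells, while Dnmt3l stood at 4.2% and 78.0%. Dnmt3b stood at 32.8% in line 21 spheres and 72.8% in reverted cells, and Uhrf1 at 50.0% and 66.9%. Dnmt1 stayed above its starting intensity, at 213% in line 21 spheres and 181% in reverted cells. With the spread of the sphere arrays, limma called 0 genes between reverted and starting ES cells (327 at an unadjusted p under 0.05), and Dnmt3a had an SE of 0.49 and an adjusted p of 0.999.

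**Figure D4:**
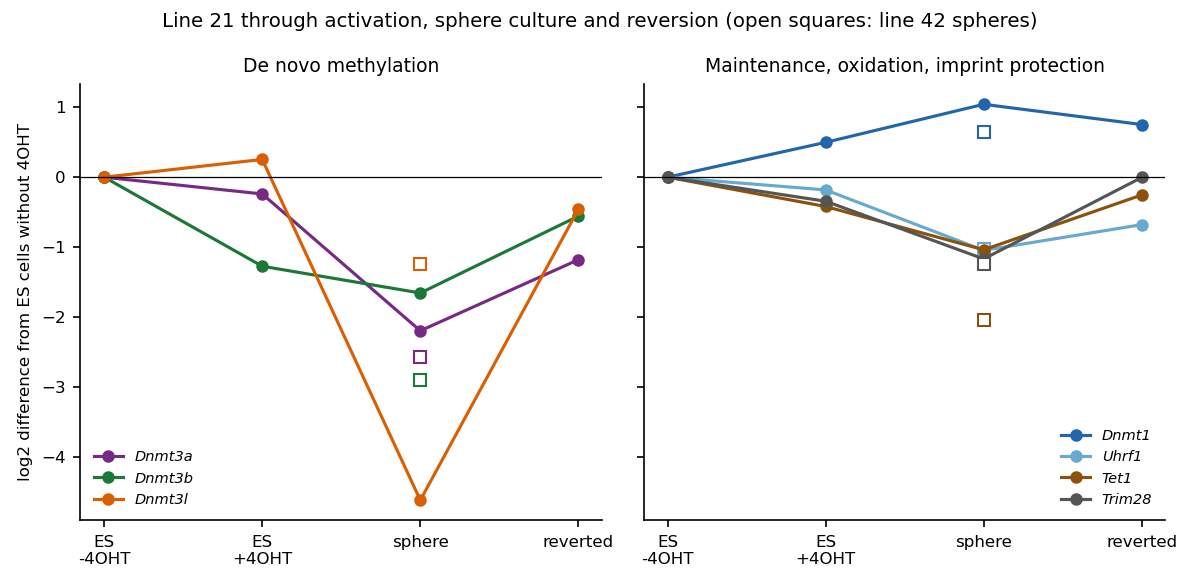
Log2 difference from ES cells without 4OHT along the course of line 21, through 4OHT, sphere culture and reversion, 1 array per step; open squares are line 42 spheres. Dnmt3b is already lower in ES cells with 4OHT, Dnmt3l is lowest in line 21 spheres, and Dnmt3a ends at -1.18 in reverted cells.

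The 2 sphere lines differed most in Dnmt3l, which was 10.4-fold higher in line 42 than in line 21 spheres (log2 3.38), a gap larger than that of 99.4% of genes. Dnmt3b and Tet1 went the other way, 2.36-fold and 2.01-fold lower in line 42 spheres. Of all genes, 7.87% were at least 2-fold higher and 7.81% lower in line 42 spheres. Dnmt3a (1.30-fold lower), Trim28 (1.05-fold lower) and Uhrf1 (1.01-fold higher, with a direction that turned under quantile normalization) were close. Dppa3 shields methylated DNA from Tet3 in the mouse zygote and marks germ cells. It read 9198 in line 42 and 223 in line 21 spheres, so it stood on the same side as Dnmt3l. It was set beside Dnmt3l after its values were seen. Of the 8 primordial germ cell markers, Dppa3 among them, 5 were lower in line 42 than in line 21 spheres. At least 2-fold apart were 3 lower and 2 higher. With 1 array a line, line and culture cannot be told apart.

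Genes that work with these 9 were described from lists covering 85 genes, of which 75 had a probe and 65 were tested in spheres against the ES-type arrays. Their median log2 difference was -0.13, limma called 1 lower and 0 higher, and 2 were at least 2-fold lower in both lines against every ES-type array, where 2.64% of all genes were lower and 1.76% higher. By role the medians were 0.12 for oxidation and base excision repair (15 tested), -0.52 for readers of methylated DNA (5), -0.17 for Trim28 partners and H3K9 methylation (11), 0.15 for maintenance and imprint cofactors (10) and 0.00 for methyl donor supply (7). In these 5 lists limma called 0 genes. The gene for Setdb1, the H3K9 methyltransferase that Trim28 recruits, was chosen after its values were seen. It read 441 and 334 in line 21 and line 42 spheres, against 377 in reverted cells and 337 and 474 in ES cells with and without 4OHT.

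The gene called lower was Sycp3, a component of the synaptonemal complex whose promoter is methylated in somatic mouse cells. It read 33.7 and 94.7 in line 21 and line 42 spheres, against 487 in reverted cells and 742 and 752 in ES cells with and without 4OHT (11.2-fold, log2 -3.49, SE 0.47, limma adjusted p = 0.0303). The call was lost without the array of ES cells lacking 4OHT (limma adjusted p = 0.143), without that with 4OHT (0.107) and without that of line 21 spheres (0.0521), over a range of 0.0224 to 0.143 in all alternatives. It belongs to a list of 15 germline genes silenced by promoter methylation, of which 9 were tested with a median of -0.96, 1 called lower and 0 higher. Among these, Mael (5.88 and 14.6 in line 21 and line 42 spheres) and Taf7l (15.3 and 8.6) passed the filter only through ES-type arrays. Their entry already leans on the arrays where they are high, so the median is no support for a lower level in spheres. Idh3b, a subunit of a mitochondrial enzyme that makes alpha-ketoglutarate, which Tet enzymes need, was the other gene 2-fold lower against every ES-type array. It read 460 and 252 in line 21 and line 42 spheres, against 1075 in reverted cells and 1240 and 990.3 in ES cells with and without 4OHT (log2 -1.68, SE 0.32, limma adjusted p = 0.0606, with 0.0473 to 0.215 over all alternatives and the lowest without line 21 spheres). Of its list, 5 were tested with a median of -0.35 and 0 were called.

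Uhrf2, the paralogue of Uhrf1, stood on the opposite side from it and was chosen after its values were seen. It read 426 and 295 in line 21 and line 42 spheres, against 169 in reverted cells and 102 and 141 in ES cells with and without 4OHT (log2 1.40, limma adjusted p = 0.0984). Of the germ cell factors tied to the reset of methylation, Prdm14, a repressor of Dnmt3 genes in mouse ES cells, read 205 and 227 in line 21 and line 42 spheres, against 151 in reverted cells and 121 and 141 in ES cells with and without 4OHT (limma adjusted p = 0.218). Tfap2c, a factor of germ cell specification, read 1943 and 1581 in line 21 and line 42 spheres, against 999 in reverted cells and 497 and 678 in ES cells with and without 4OHT (limma adjusted p = 0.127). Prdm1, a repressor that begins the germ cell program, read 47.4 and 21.1 in line 21 and line 42 spheres, against 55.2 in reverted cells and 30.8 and 55.8 in ES cells with and without 4OHT (limma adjusted p = 0.623). None of these 3 factors was called (median 0.65), and Prdm1 overlapped between the groups.

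**Figure D5:**
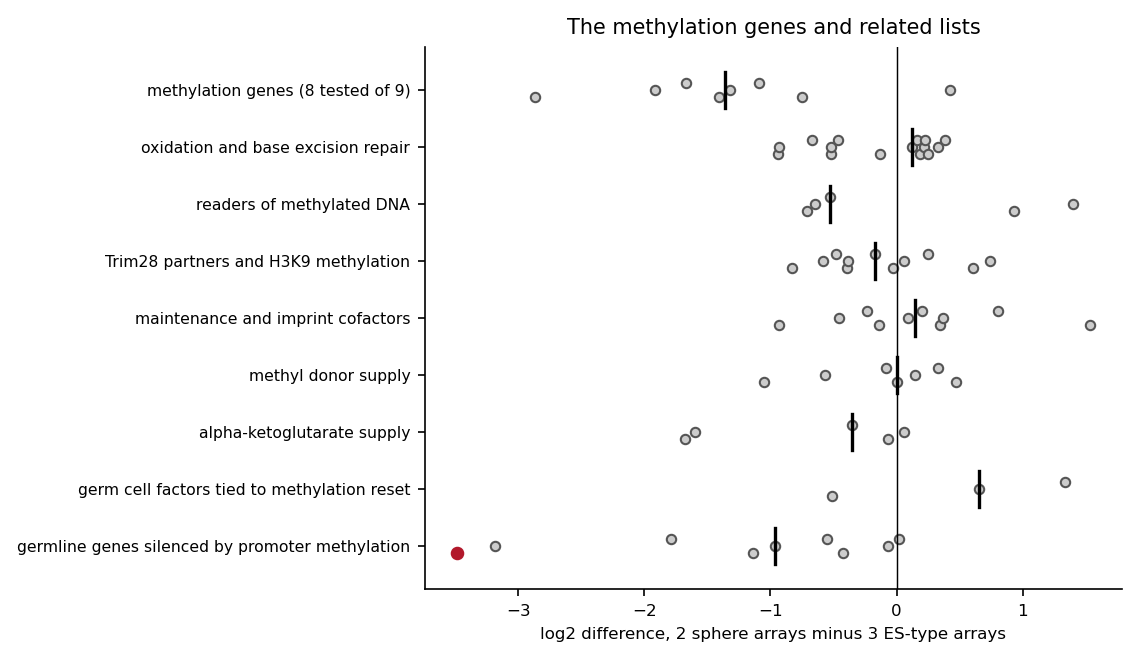
Log2 difference between the 2 sphere arrays and the 3 ES-type arrays for each tested gene of the group and of the related lists (points), with list medians (black bars). The red point, Sycp3 at -3.49, is the only one past limma's threshold. The methylation genes have the lowest median of the 9 rows, -1.36, or -1.32 without Tet2, which entered only through reverted cells. Members and lists were chosen with earlier results of these data known, so this order of the rows is no support for a difference.

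In the line 21 ES-type comparisons the related genes that differed most were others. With 4OHT, Taf7l, a germ cell TFIID subunit, was higher by 1.65 on the log2 scale than without it, and Dppa3 differed by -1.47. In reverted cells, the transposon-defence gene Mael differed by -2.23 and the germ cell gene Stk31 by -2.01 from ES cells without 4OHT. Taf7l (46.7 with and 12.8 without 4OHT) and Stk31 (26.0 in reverted cells, against 101 in ES cells without 4OHT) passed the filter only through the array where they are high. These are single arrays with no replicate check.

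Over the 5 arrays, the genes whose centred log2 profile lay nearest to that of Dnmt3a, by Euclidean distance among 10589 genes, were Rspo1 (0.27), Ppm1j (0.36) and Eif3i (0.36), where the median distance was 2.40. For Dnmt3b they were Stard8 (0.38), Cds1 (0.43) and Dtx1 (0.56), with a median of 2.35. For Dnmt3l they were Enox1 (0.87), Nf2 (0.96) and Tmem51 (1.05), with a median of 4.02. With 5 arrays and so many genes, near profiles occur for most patterns. Rspo1 was under the floor in both sphere lines, Stard8 and Cds1 in line 42 and Enox1 and Nf2 in line 21 spheres, so their distances and ranks are not exact. Eif3i, a translation initiation factor subunit, read 857 and 639 in line 21 and line 42 spheres, against 1476 in reverted cells and 3971 and 3234 in ES cells with and without 4OHT. Its order of arrays differed from that of Dnmt3a only in the ES cells with and without 4OHT.

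Other cell types were checked beside these results. The summed intensity of 9 ES cell markers was 14242 and 24093 in line 21 and line 42 spheres, against 90657 to 105825 on the ES-type arrays. Of the 9, 8 were lower in spheres (median log2 -1.51), where 5282 of all 10589 genes were. Dppa5a, the brightest of them on the ES-type arrays, read 1014 and 6732 in line 21 and line 42 spheres, against 49687 to 58362. Nanog read 5523 and 4003 in line 21 and line 42 spheres, against 3839 to 5479.7. The 14 stroma and fibroblast markers summed to 2131 and 642 in line 21 and line 42 spheres, against 3595 in reverted cells, which grew on fibroblasts. In ES cells with and without 4OHT they summed to 2338 and 3344. Of these markers, 2 and 5 were under the floor in spheres, against 2 to 3. Fn1 alone read 1386 and 168 in line 21 and line 42 spheres and 1904 in feeder-free ES cells without 4OHT. The sum is therefore no measure of stroma carried over. Cxcl12, Col6a1, Vcam1 and Lum read highest in line 21 spheres (109, 31.5, 32.6 and 26.3), while 7 of the 11 markers tested were lower in spheres than on the ES-type arrays. Acta2 read 80.7 and 62.4 in line 21 and line 42 spheres, against 415 to 606 on the ES-type arrays. Thy1 read 24.8 and 16.1 there, against 230 to 464. The 7 blood and endothelium markers with a probe summed to 154 and 239 in spheres, against 172 to 423. The 8 primordial germ cell markers summed to 7534 and 14179 in line 21 and line 42 spheres, against 7486 in reverted cells. In ES cells with and without 4OHT these 8 summed to 3680 and 4996. Dppa3 alone read 9198 in line 42 spheres, 223 in line 21 spheres and 1626 in reverted cells. Of the 8, 5 were lower in line 42 than in line 21 spheres, so the higher sum of line 42 rests on Dppa3. Of the primed epiblast markers, Fgf5 read 119 in reverted cells, against 232 in line 21 spheres and 23.9 in ES cells without 4OHT. Otx2 read 1549 in reverted cells, against 634 in line 21 spheres and 681 in ES cells without 4OHT. T (brachyury) read 305 in reverted cells, against 193 in line 21 spheres and 22.6 in ES cells without 4OHT. The part of the ES, germ cell, epiblast and stroma marker levels in the results above was not tested.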

How the data were processed

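Total RNA of 5 samples was amplified to amino allyl antisense RNA, labelled with Cy5 and hybridised to arrays of Toray, per the labels' protocols. The authors deposited 1 intensity value per probe (1 colour, 22871 probes an array). How they scanned, background-corrected and normalized the arrays and left cells empty is not given in the sources used here. Members and lists were chosen with earlier results of these data known. Probes were named from the platform annotation (16264 with 1 symbol, 0 with several, 6607 with none); of 16087 symbols, 12239 stood in RefSeq (GRCm38.p6), 3787 matched 1 synonym there and 61 were kept as on the array. For genes with several probes, the probe with the highest mean was used. log2(intensity + 1) was centred per array (shifts of -0.08 to 0.06). limma 3.58.1 in R 4.3.3 (lmFit, eBayes, Benjamini-Hochberg over all genes tested) had 3 residual degrees of freedom for spheres against the ES-type arrays and 1 in the fit of 4 groups, where a lone array borrows its spread from the 2 sphere lines. Comparisons of single arrays have no test of their own; limma borrowing the sphere arrays' spread was an alternative for the 4OHT effect and for reverted against starting cells. The fits were tested on simulated data. The floor of an array is the 95th percentile of the mean other-array value of probes empty on it; 1392 to 2084 probes per array (6.09% to 9.11%) were empty. Named were the 9 genes, related genes called by limma or 2-fold lower or higher in both lines against every ES-type array, the 2 related genes that differed most in each comparison of ES-type arrays within line 21, and the 3 nearest profiles. Setdb1, Uhrf2, Prdm14, Tfap2c, Prdm1 and marker genes were named outside this rule, with their values seen. Alternatives changed the pseudocount, filter, centring, treatment of empty cells and probe rule, and left out single arrays. The number of arrays limits the precision.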

Additional observations from a re-analysis of the deposited data

How the results depend on the processing

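Of the 9 genes limma called none in the main setting, so there was no called value among them that could change sign. Sycp3, the called gene followed over the alternatives, kept its sign (log2 -4.20 to -2.78). Differences near 0 turned for Trim28 in reverted cells against ES cells without 4OHT (0.10 without centring, 0.13 with quantile normalization) and for Uhrf1 between sphere lines (-0.10 with quantile normalization, -0.01 with empty cells filled). In spheres against the 3 ES-type arrays, the count of members at least 2-fold lower (2, Dnmt3a and Tet2) was 0 with a pseudocount of 16, 1 with the 60th percentile filter, without centring or with quantile normalization, and 2 to 4 with single arrays left out (4 without the line 21 sphere array or the array of ES cells with 4OHT). With empty cells set to the lowest listed value, only Zfp57 passed limma's threshold (log2 -3.59). Both its sphere values were imputed there, so this is no test of its level. Members past that threshold (0 in the main setting) numbered 0 to 1 with single ES-type arrays left out. Genes past it (258) numbered 0 to 284: 0 with ES cells without 4OHT left out, 32 with those with 4OHT left out, and 148 and 98 without the line 21 and line 42 sphere arrays. Against ES cells without 4OHT, members at least 2-fold lower (6) numbered 4 without centring or with quantile normalization and 5 with empty cells filled. These 5 include Zfp57, whose sphere values were imputed, so that count is no support for a lower level in spheres. Members at least 2-fold higher there (0) numbered 1 without the line 42 spheres (Dnmt1, 2.06-fold), and 0 to 1 over both. Against ES cells with 4OHT, members at least 2-fold lower (2) numbered 4 with empty cells filled, imputed Zfp57 and Tet2, under the floor in spheres, among them. They numbered 2 to 4 with 1 sphere array left out. With Tet2 counted, they numbered 2 in place of 4 against reverted cells with a pseudocount of 16, and reverted cells against line 21 spheres gave 3 higher in place of 5. Between sphere lines, 1 in place of 2 was lower with that pseudocount or without centring. With the lowest listed value as the floor, Zfp57 was at least 12.2-fold lower in spheres, in place of 3.35-fold. Causes were not tested. No paired analysis was possible because the groups share only 1 line (line 21), and so fewer than 2 pairs.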
